A study of Mus musculus with 16 samples.

Results

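The 8 control libraries of a liver regeneration experiment were chosen by the running number in their column headings, and libraries numbered 1 and 2 were set against libraries numbered 3 and 4. Each side held 2 libraries made before and 2 made after regeneration, so that 8 of the 16 libraries of the series entered the comparison, 4 against 4. The number is in no label, and the headings give neither the virus, the mouse nor the replicate number of a library. The split was proposed with earlier results of these libraries in view. Its calls below are therefore a description of how control libraries differed among themselves when HIRA was not deleted, and not a test of any treatment.

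All samples were poly(A) RNA from livers of male mice. The controls were wildtype C57BL/6 mice that received, at 6 months of age, an AAV8 vector with the hepatocyte promoter Tbg driving Cre recombinase or saCas9, the latter with a guide to the Rosa26 safe-harbour locus. The labels give 2 control libraries with each virus at each time. The split may therefore follow the virus in full, in part or not at all. A difference between the viruses cannot be told apart from other differences between the pairs, and its part in the values below was not tested. The HIRA KO libraries came from HIRA fl/fl mice given AAV8 Tbg-Cre or from wildtype mice given saCas9 with a HIRA guide, and they are used here only for values beside those of the controls. The left lateral and median lobes were resected 4 weeks after the virus and are the tissue before regeneration. The remaining liver was taken 5 days later and is the tissue after regeneration. By this surgery each of 4 mice could give both libraries, so the 8 control libraries may come from 4 mice, both libraries of a mouse may stand on the same side of the split, and p-values over libraries are not p-values over mice.

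After partial hepatectomy, hepatocytes of the remaining lobes leave quiescence, copy their DNA and divide, while the liver goes on with its metabolic work. Liver is also among the tissues with the strongest daily rhythm, in which BMAL1 and CLOCK drive their own repressors through E-boxes and the repressors shut them off again. Feeding and fasting move a further large set of genes, among them the fatty acid oxidation genes that the receptor PPARA switches on. Genes of these programmes can vary between mice of 1 genotype. Their variation between the control mice was not tested here, as no column is tied to a mouse.

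Total counts were 16981835 to 20356781 in libraries 1 and 2 and 18200316 to 19235043 in libraries 3 and 4. The share of mitochondrial transcripts ran from 4.43 to 6.73% against 4.55 to 6.76%, and the share of albumin from 7.83 to 12.3% against 8.17 to 10.8%, so the pairs overlapped in all 3 measures. Hira itself, the histone H3.3 chaperone subunit deleted in the KO mice, was at 5.56 and 6.01 against 6.097 and 5.06 CPM (counts scaled to a common library total) in libraries 1 and 2 against 3 and 4 before regeneration and at 5.38 and 4.93 against 5.83 and 6.23 CPM after it. Its log2 difference was -0.086 ± 0.15 (SE, 4 against 4 libraries; libraries 1 and 2 minus 3 and 4, as for every difference below), and it was not called. The median difference of the 12 tested genes of the HIRA complex and H3.3 pathway was -0.0074, beside 0.017 over all 20144 genes tested. The 24 hepatocyte genes had a median difference of 0.11, with none called, and their mean log2(CPM + 1) was 11.3 and 11.3 against 11.3 and 11.4 before and 11.1 and 10.8 against 10.5 and 10.3 after regeneration.

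In a principal component analysis of the 12934 genes with a mean of at least 1 CPM, the first component held 60.0% of the variance and separated the times. The second held 14.7%. Libraries 1 and 2 lay at 8.10 and 12.1 on it before regeneration and at 18.8 and 18.8 after it, whereas libraries 3 and 4 lay at -3.23 and -27.6 before and at -9.003 and -17.9 after. Library 4 before regeneration lay farthest out.

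**Figure D1:**
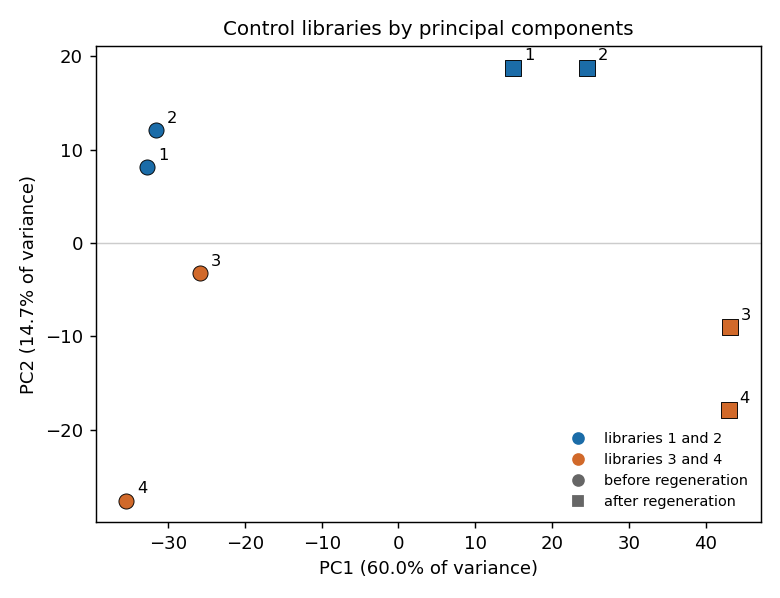
Principal components of log2(CPM + 1) in the 8 control libraries, with PC1 on the horizontal and PC2 on the vertical axis and the running number beside each point. Libraries 1 and 2 (blue) sit between 8.10 and 18.8 on PC2 and libraries 3 and 4 (orange) between -3.23 and -27.6, at both times.

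Of 20144 genes tested with time as a covariate, 138 were called at an adjusted p under 0.05, which is 0.685% of the genes (edgeR quasi-likelihood test, Benjamini-Hochberg). Of these, 70 were higher in libraries 1 and 2 (0.347%) and 68 were lower (0.338%), and 51 differed by more than 1 on the log2 scale. All 138 had the same sign of difference before and after regeneration, as a fit with 1 common difference favours. Without overlap of the pairs at either time, 1451 genes were higher (7.2%) and 1253 lower (6.22%) in libraries 1 and 2, and this held for 136 of the 138 called genes. The number of calls was not stable. With the counts of each running number summed over both times, 2 sums against 2, an alternative added after the data were seen, 62 genes were called, of which 31 were among the 138. It was 30, 19, 250 and 73 when libraries 1, 2, 3 and 4 before regeneration were left out in turn and 42, 55, 50 and 19 when those after regeneration were, and 14 genes were called in all 8 of these fits. These were Upp2, Ide, Sorbs3, Slc43a1, Gnat1, Gpcpd1, Pcp4l1, Slco1a4 and 4930581F22Rik among the higher and Tmem267, Tubb2a, Apoa4, Abhd6 and Gm6135 among the lower genes.

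A further 12 of the 138 genes were called in none of the 8 fits. The genes named by rule are the 12 called genes in each direction with the largest difference, a mean of at least 1 CPM and no overlap at either time. Upp2, a liver uridine phosphorylase that splits uridine for pyrimidine salvage, stood out by its small error. It was at 327 and 277 against 103 and 106 CPM in libraries 1 and 2 against 3 and 4 before regeneration and at 72.9 and 71.02 against 20.1 and 22.2 CPM after it, a log2 difference of 1.65 ± 0.098. Both pairs were tight at both times although the level itself was lower after regeneration, with a time difference of -2.18 on the log2 scale. Time itself was called in 3984 of 20144 genes (19.8%) of the same 8 libraries. Slco1a4, an organic anion transporter that takes bile acids and drugs into hepatocytes, was at 116 and 91.1 against 24.7 and 35.8 CPM before and 39.2 and 37.9 against 15.97 and 16.02 CPM after (1.53 ± 0.15). Slc43a1, a carrier of branched-chain amino acids, was at 8.81 and 9.47 against 4.23 and 3.97 CPM and then at 11.98 and 9.64 against 3.399 and 4.18 CPM (1.33 ± 0.15). For all 3 genes the lower library of the first pair lay above the higher library of the second at each time.

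Camk2b, the beta subunit of calcium/calmodulin-dependent kinase II, was at 13.2 and 16.4 against 5.93 and 5.06 CPM before and 7.76 and 9.18 against 3.24 and 5.04 CPM after regeneration (1.23 ± 0.17). Cd207 encodes langerin, a lectin of Langerhans-type dendritic cells, and was at 6.44 and 7.02 against 3.27 and 1.61 CPM and then 6.48 and 5.61 against 1.56 and 0.856 CPM (1.86 ± 0.27). Pcp4l1, a small relative of the calmodulin-binding protein PCP4, was at 14.5 and 27.4 against 5.702 and 6.21 CPM and then 6.79 and 8.05 against 2.48 and 2.71 CPM (1.68 ± 0.20). Sspo, which encodes the giant secreted protein SCO-spondin, and Zc3h6, a zinc finger gene, were under 3 CPM in every library and differed by 1.44 ± 0.30 and 1.49 ± 0.30. The noncoding genes B930025P03Rik, Gm35696 and Gm12781 completed the list, at 2.37 ± 0.36, 1.36 ± 0.25 and 1.27 ± 0.25. In the 8 fits each without 1 library, Camk2b was called in 7, Cd207 and B930025P03Rik in 5 each, Gm35696 in 2 and Gm12781 in 1, while Sspo and Zc3h6 were called in none of them. Gm12781 is annotated as antisense, and since the strand setting of the counting is not stated, its reads may belong to the gene on the opposite strand.

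Among the named higher genes, the largest difference was that of Rian, a maternally expressed long noncoding RNA of the imprinted Dlk1-Dio3 region. Rian was at 0.836 and 1.28 against 0.226 and 0.172 CPM before regeneration and at 5.32 and 16.6 against 0.594 and 1.57 CPM after it, and differed by 3.09 ± 0.52. The pairs were apart at both times, but library 2 after regeneration was far above the rest, and the gene was called in 2 of the 8 fits without 1 library. Its neighbours in that region, looked up after the values of Rian were seen, were not called. Meg3 was at 2.95 and 2.501 against 1.07 and 0.9196 CPM before and 16.3 and 38.9 against 0.863 and 3.14 CPM after regeneration (2.91 ± 0.71), and Mirg stayed under 1 CPM in every library.

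Among the 12 lower genes, Tmem267, a membrane protein gene, had the smallest error. It was at 3.69 and 4.68 against 11.2 and 11.5 CPM before and 2.51 and 2.44 against 6.69 and 9.13 CPM after regeneration, a log2 difference of -1.55 ± 0.16. Rcan2, a regulator of the phosphatase calcineurin, was at 1.72 and 1.92 against 6.097 and 11.1 CPM and then at 4.65 and 2.61 against 8.09 and 12.6 CPM (-1.86 ± 0.28). Cyp4a31, of the fatty acid omega-hydroxylase family, was at 1.13 and 1.17 against 3.44 and 2.82 CPM and then 9.66 and 4.48 against 24.5 and 30.6 CPM (-1.78 ± 0.24). Cyp4a genes are near-identical copies, so the split of reads between them is uncertain. In each of these 3 genes libraries 3 and 4 lay above libraries 1 and 2 at both times. Without 1 library, Cyp4a31 was called in 5 and Rcan2 in 4 of 8 fits.

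Most of the other lower genes were scarce before regeneration. Gpx2, a glutathione peroxidase, was at about 1 read in each library before regeneration, so that its difference of -2.42 ± 0.35 rests on the later libraries, at 1.34 and 2.61 against 9.01 and 14.2 CPM. Akr1b7, an aldo-keto reductase, was at 1.65 and 0.6802 against 7.34 and 3.99 CPM after regeneration (-2.32 ± 0.41), and Rad51b, a gene of homologous recombination, at 3.42 and 0.794 against 9.82 and 10.9 CPM (-2.30 ± 0.42). Gins2, a subunit of the replicative helicase, was at 1.28 and 2.21 against 5.61 and 7.32 CPM after regeneration (-1.53 ± 0.31). Spdl1, the kinetochore protein Spindly, was at 2.08 and 3.23 against 9.28 and 7.89 CPM (-1.42 ± 0.27) and Tedc1, a centriole component, at 0.795 and 1.53 against 4.59 and 3.66 CPM (-1.72 ± 0.33). In each of these genes the higher library of the first pair lay below the lower library of the second after regeneration. Before it, the order of Gpx2 at about 1 read per library followed the scaled library totals. Its lack of overlap at that time therefore carries no information. Akr1b7, Gins2, Spdl1 and Tedc1 were then at most 0.517 CPM in any library, so their order before regeneration rests on few reads. The zinc transporter gene Slc39a5 (-1.56 ± 0.30), the monocarboxylate transporter gene Slc16a13 (-1.49 ± 0.26) and the noncoding RNA Gm6135 (-2.59 ± 0.33) were at most 7.32 CPM in any library. Gpx2 was called in 6 of the 8 fits without 1 library, Akr1b7, Rad51b and Spdl1 in 2 each, and Gins2, Tedc1, Slc39a5 and Slc16a13 in 1 each.

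**Figure D2:**
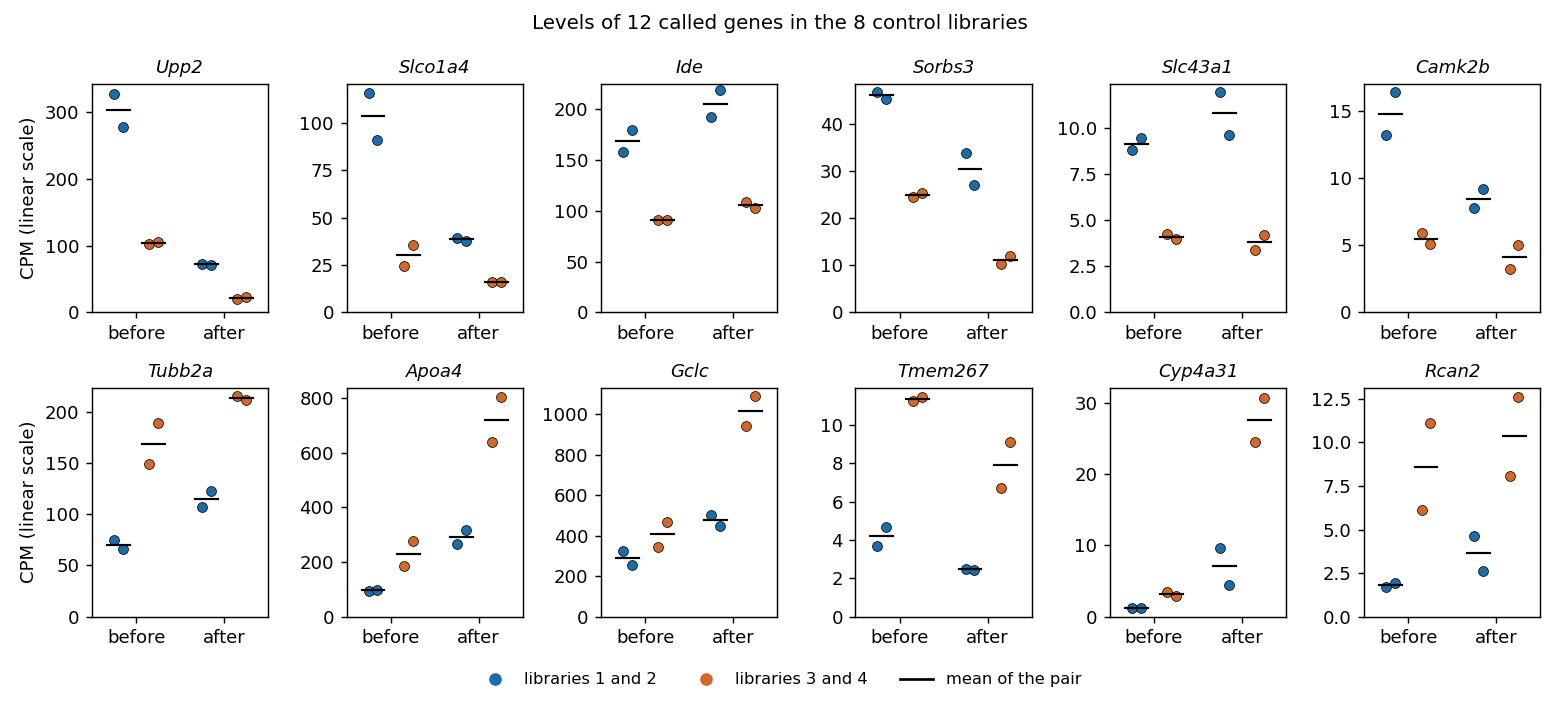
CPM on linear axes from 0 in the 8 control libraries for 12 called genes, before and after regeneration. Each point is 1 library, blue for libraries 1 and 2 and orange for 3 and 4, and each bar is the mean of the pair. In the upper row, for example Ide and Upp2, the blue points lie above the orange ones at both times, and in the lower row, for example Tubb2a and Tmem267, below them.

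Of the other called genes, those described next were chosen by their role after their values were seen. Ide, the insulin-degrading enzyme, was at 158 and 179 against 90.7 and 91.2 CPM before and 192 and 219 against 109 and 103 CPM after regeneration (0.92 ± 0.091), with an error among the smallest of the called genes. Several carriers differed. Slc38a3, the hepatic glutamine transporter, was at 2385 and 2065 against 1285 and 1393 CPM and then at 1675 and 1345 against 850.1 and 672 CPM (0.86 ± 0.14), and Slc1a5, another glutamine carrier, differed in the same direction by 1.05 ± 0.19. Slc16a1, the lactate carrier MCT1, differed by -0.54 ± 0.096, and so was the efflux pump gene Abcg2 (-0.66 ± 0.11). Of receptors, Lifr, through which leukaemia inhibitory factor signals, was higher by 0.72 ± 0.12 and Fgfr1 by 1.21 ± 0.20. In the 8 fits without 1 library, Slc38a3 was called in 4, Abcg2 and Lifr in 3 each, Slc16a1 and Fgfr1 in 2 each and Slc1a5 in 1.

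Apoa4, an apolipoprotein of triglyceride-rich particles, was at 94.2 and 97.8 against 183 and 277 CPM before and at 265 and 317 against 640.3 and 802 CPM after regeneration (-1.29 ± 0.14). Crat, which makes acetylcarnitine, was at 31.3 and 29.3 against 50.6 and 86.4 CPM and then 40.2 and 40.1 against 65.99 and 83.04 CPM (-1.03 ± 0.16), and Slc25a20, which carries acylcarnitines into mitochondria, differed by -0.53 ± 0.11. Pparg, the receptor that promotes lipid storage, differed by -0.92 ± 0.18, Insig2, which holds SREBP precursors in the endoplasmic reticulum, by -0.69 ± 0.14, and the monoacylglycerol lipase gene Abhd6 by -0.92 ± 0.11. In the other direction, Stard4, a cholesterol transfer protein, was higher in libraries 1 and 2 by 0.45 ± 0.089 and the orphan receptor gene Gpr146 by 0.84 ± 0.13. The structural genes Tubb2a, a beta tubulin (-1.08 ± 0.12), and Sorbs3, the adhesion protein vinexin (1.16 ± 0.13), stood on opposite sides. Without 1 library, Gpr146 was called in 4, Crat in 3, Pparg in 2 and Slc25a20 and Insig2 in 1 each of 8 fits, and Stard4 in none.

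Reads of ribosomal RNA also differed between the pairs, a check made after values were seen. The locus CT010467.1, annotated as ribosomal RNA, was at 1637 and 1468 against 3326 and 2031 CPM before and 936 and 1210.1 against 2629.8 and 2018 CPM after regeneration and was called (-0.95 ± 0.18). Lars2, known to collect such reads in mouse, and Gm15564 were called in the same direction (-0.74 ± 0.15 and -0.89 ± 0.13). Without 1 library, Gm15564 was called in 5 of 8 fits, CT010467.1 in 1 and Lars2 in none. Together these 3 loci held from 0.118 to 0.204% of the counts of libraries 1 and 2 and 0.252 to 0.402% of those of libraries 3 and 4, without overlap. The part of this share in the other differences was not tested.

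The clock lists had larger median differences before than after regeneration. The repressor arm list, with PER, CRY and REV-ERB genes and their E-box-driven partners, had 14 tested genes and a median difference of 0.42, made of 0.84 before and 0.15 after regeneration. The activator arm list, 6 genes of the opposite phase, had a median of -0.53, made of -0.83 and -0.15. No member was called in the additive fit, against 0.685% of all genes, and leaving out each library in turn gave repressor medians between 0.36 and 0.55. The E-box (CACGTG, which reads the same on both strands) is where BMAL1 and CLOCK bind, the D-box (TTATGTAA) is bound by DBP, TEF and HLF and by their rival NFIL3, and TAGGTCA holds the half-site bound by REV-ERB and ROR receptors. Promoters of 4 of these genes are printed because they hold the letters of these elements, in capitals, in a window from 250 bases before to 50 after the annotated start (RefSeq, GRCm38.p6).
Ciart, chr3:95882179-95882478 (minus strand), 3 E-boxes: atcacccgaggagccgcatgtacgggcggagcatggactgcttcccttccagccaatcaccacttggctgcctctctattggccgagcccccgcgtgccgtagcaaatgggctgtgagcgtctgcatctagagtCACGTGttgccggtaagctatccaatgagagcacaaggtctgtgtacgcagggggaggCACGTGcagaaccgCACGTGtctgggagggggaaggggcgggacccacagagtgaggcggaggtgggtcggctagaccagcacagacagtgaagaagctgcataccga
Tef, chr15:81802423-81802722 (plus strand), 1 E-box: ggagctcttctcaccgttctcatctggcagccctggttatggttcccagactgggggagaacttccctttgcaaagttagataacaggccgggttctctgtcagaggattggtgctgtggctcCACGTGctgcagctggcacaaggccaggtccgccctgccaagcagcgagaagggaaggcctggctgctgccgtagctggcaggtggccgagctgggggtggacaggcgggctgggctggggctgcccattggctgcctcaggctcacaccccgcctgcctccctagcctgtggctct
Per3, chr4:151044616-151044915 (minus strand), 2 D-boxes: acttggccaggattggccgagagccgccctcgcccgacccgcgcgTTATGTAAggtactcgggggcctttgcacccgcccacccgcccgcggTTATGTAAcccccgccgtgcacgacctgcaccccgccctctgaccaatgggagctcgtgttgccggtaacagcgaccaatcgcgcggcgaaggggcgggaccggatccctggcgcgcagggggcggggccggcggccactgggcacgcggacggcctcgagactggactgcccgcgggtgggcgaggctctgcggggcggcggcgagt
Arntl, chr7:113207261-113207560 (plus strand), 1 REV-ERB and ROR site: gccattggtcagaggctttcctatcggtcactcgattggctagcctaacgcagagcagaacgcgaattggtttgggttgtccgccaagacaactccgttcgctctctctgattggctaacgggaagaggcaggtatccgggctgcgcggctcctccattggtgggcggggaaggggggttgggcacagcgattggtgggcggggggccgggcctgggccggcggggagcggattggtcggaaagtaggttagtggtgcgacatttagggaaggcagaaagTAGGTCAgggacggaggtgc
Of all 32851 promoters in the same table, 7.15% held the E-box letters, 0.938% the D-box letters and 2.61% TAGGTCA on either strand. Of the 14 promoters matched to 12 genes of the repressor arm, 6 held an E-box. These matches describe letters and do not show a bound site.

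Ciart, a repressor of BMAL1 and CLOCK with 3 E-boxes above, was at 4.33 and 2.77 against 0.9598 and 2.13 CPM before regeneration and under 1 CPM in all 4 libraries after it. Per3, the period gene with both D-boxes, was at 30.7 and 18.4 against 8.02 and 6.26 CPM before and 2.38 and 3.63 against 1.996 and 2.38 CPM after regeneration. Dbp, the D-box activator whose transcript swings widely over the day, was at 46.2 and 34.4 against 7.001 and 7.13 CPM before and 2.995 and 3.34 against 0.863 and 3.14 CPM after, a difference of 2.51 before regeneration. Tef, its relative, was at 157 and 147 against 66.8 and 83.5 CPM before and 35.3 and 38.7 against 29.7 and 29.4 CPM after. Bhlhe41, an E-box repressor, was at 7.58 and 5.85 against 1.52 and 0.287 CPM before regeneration and under 1 CPM in all 4 libraries after it. In each of these 5 genes libraries 1 and 2 lay above libraries 3 and 4 before regeneration.

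Genes of the opposite arm, Arntl, Npas2 and Nfil3, were lower in libraries 1 and 2 before regeneration by their values. Arntl, which encodes BMAL1, was at 9.15 and 9.05 against 28.002 and 21.95 CPM before and 31.1 and 29.2 against 39.3 and 27.5 CPM after regeneration, and its partner Npas2 at 1.48 and 1.22 against 6.61 and 5.23 CPM before and 9.72 and 10.9 against 14.03 and 8.75 CPM after. Nfil3, the D-box repressor, was at 15.4 and 15.3 against 70.7 and 57.2 CPM before and at 57.5 and 44.2 against 48.4 and 43.6 CPM after regeneration, when the pairs overlapped. Its difference of -2.06 before and 0.15 after regeneration made it the gene with the smallest p for a change of the pair difference with time. Cry1 stood with this arm, at 8.02 and 7.72 against 20.4 and 16.1 CPM before regeneration. Per1 and Nr1d1 showed no such order, with 70.1 and 35.6 against 15.98 and 56.6 CPM and 94.2 and 74.9 against 116 and 76.3 CPM before regeneration. Surgery was done in the morning, and no label gives the hour at which a liver was taken. Its part in these values was not tested.

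Genes of lists are named from here on by their known role or by their values, after both were seen. Fatty acid oxidation and PPARA target genes had lower values in libraries 1 and 2 at both times. All 18 tested genes had a negative difference, with a median of -0.91 (-0.69 before and -0.87 after regeneration), and 10 were apart at both times, beside 6.22% of all genes. 1 gene, Cyp4a31, was called, beside 0.338% of all genes lower. Leaving out single libraries gave medians between -0.98 and -0.81. Cyp4a14, a fatty acid hydroxylase and a classical PPARA target, was at 5.02 and 1.06 against 15.5 and 240.0 CPM before and 41.02 and 4.02 against 346 and 348 CPM after regeneration. The pairs were apart, but libraries 3 and 4 were also far from each other before regeneration, and the difference of -4.58 ± 1.29 was not called. Cyp4a10 was at 19.7 and 8.03 against 74.9 and 193 CPM and then 55.6 and 10.5 against 148 and 112 CPM, and Vnn1, a pantetheinase, at 13.97 and 5.27 against 31.7 and 109.9 CPM and then 20.97 and 12.8 against 64.9 and 136 CPM. Fgf21, the fasting hormone of the liver, was under 2.1 CPM before regeneration and at 0.489 and 0.3401 against 3.67 and 15.6 CPM after it. Cpt1a, which commits fatty acids to mitochondria, differed by -0.11 ± 0.15. Feeding state is in no label, and its part was not tested.

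Lists of other lipid pathways showed less. Fatty acid synthesis genes had a median of -0.22 before and 0.56 after regeneration and cholesterol synthesis genes of 0.13 and 0.30, with no gene called in either list. In the bile acid list of 14 genes, Slco1a4 was called, beside 0.347% of all genes higher. Cyp7a1, the rate-limiting enzyme of bile acid synthesis, was at 57.6 and 52.2 against 49.1 and 28.6 CPM before and 31.7 and 58.8 against 2.27 and 6.61 CPM after regeneration (1.79 ± 0.77, not called). Cyp8b1, which sets the share of cholic acid, differed by 1.54 ± 1.06, and Nr0b2, the repressor SHP that acts on both, by -1.05 ± 0.47. Neither was called. The pairs overlapped for Cyp8b1 before regeneration, at 248 and 435 against 440.1 and 437 CPM, and for Nr0b2 after it, at 34.6 and 23.1 against 38.1 and 33.1 CPM.

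All 24 mitotic genes had a lower fitted level in libraries 1 and 2, with a median of -1.42, made of -0.37 before and -1.71 after regeneration. None was called, in this fit or for a change of the difference with time. The mean log2(CPM + 1) of the list was 0.674 and 0.752 against 1.102 and 0.677 before and 2.17 and 3.86 against 4.97 and 4.64 after regeneration. Library 1 after regeneration was thus the lowest, library 2 intermediate, and libraries 3 and 4 the highest. Without library 1 after regeneration the median was -0.86, and without library 2 it was -1.94. Mki67, the classical proliferation marker, was at 11.6 and 37.4 against 70.2 and 76.8 CPM after regeneration, Cdk1, the kinase that starts mitosis, at 6.97 and 17.7 against 51.4 and 38.8 CPM and Ccnb1, its cyclin, at 2.02 and 15.8 against 39.5 and 28.2 CPM.

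The 23 DNA replication genes had a median of 0.034 before and -1.02 after regeneration, and Gins2 was the 1 member called, beside 0.338% of all genes lower. Mcm2, of the replicative helicase, was at 6.66 and 9.35 against 15.3 and 19.6 CPM after regeneration, Pcna, the sliding clamp, at 26.3 and 26.6 against 36.8 and 33.8 CPM and Rrm2, which supplies deoxynucleotides, at 10.5 and 23.1 against 44.7 and 31.8 CPM. Promoters of mitotic genes are known for a CHR element (TTTGAA) near the start and CCAAT boxes before it. The promoters of Spdl1, called above, and of Cdc20, an activator of the anaphase-promoting complex that was at 5.44 and 41.5 against 74.3 and 61.1 CPM after regeneration, are printed with both elements in capitals, on either strand.
Spdl1, chr11:34833592-34833891 (minus strand), 1 CHR and 1 CCAAT box: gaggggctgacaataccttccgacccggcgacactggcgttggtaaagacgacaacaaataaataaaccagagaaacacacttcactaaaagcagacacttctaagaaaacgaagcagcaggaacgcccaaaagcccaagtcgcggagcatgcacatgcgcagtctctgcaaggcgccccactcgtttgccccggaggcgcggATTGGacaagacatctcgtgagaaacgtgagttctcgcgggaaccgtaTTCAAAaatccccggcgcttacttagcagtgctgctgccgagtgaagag
Cdc20, chr4:118437294-118437593 (minus strand), 1 CHR and 2 CCAAT boxes: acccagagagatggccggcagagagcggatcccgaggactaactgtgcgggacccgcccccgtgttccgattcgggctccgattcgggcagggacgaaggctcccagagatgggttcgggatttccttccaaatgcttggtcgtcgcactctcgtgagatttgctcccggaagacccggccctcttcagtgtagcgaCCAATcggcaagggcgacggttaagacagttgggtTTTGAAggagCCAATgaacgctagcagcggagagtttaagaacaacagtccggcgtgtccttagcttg
Of 22 promoters matched to 20 mitotic genes, 17 held the CHR letters and 19 those of the CCAAT box (77.3 and 86.4%, beside 17.9 and 37.4% of all promoters). Of the 79 promoters matched to 52 of the 68 genes called lower in libraries 1 and 2, 19% held the CHR letters. The hepatocyte list had the opposite order after regeneration, with all 24 genes higher by their values in libraries 1 and 2 and a median of 0.37. In bulk tissue, the share of dividing cells and the transcript per dividing cell cannot be told apart. Neither was tested as a source of these values.

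Antioxidant genes under NRF2 also had lower values in libraries 1 and 2 after regeneration. The median of the 14 tested genes was -0.029 before and -1.33 after regeneration, and Gpx2 and Gclc were called, beside 0.338% of all genes, Gclc in 1 of the 8 fits without 1 library. Gclc, the catalytic subunit of the enzyme that limits glutathione synthesis, was at 327 and 257 against 346 and 467 CPM before and 501 and 449.7 against 941 and 1089.7 CPM after regeneration (-0.79 ± 0.16). Nqo1, the quinone reductase, was at 20.4 and 28.1 against 61.99 and 131 CPM after regeneration, Srxn1, a sulfiredoxin, at 139 and 212 against 346 and 771 CPM and Gsta1, a glutathione transferase, at 5.44 and 15.2 against 31.3 and 86.3 CPM. In these 3 genes library 4 was the highest. The median over the list from the fit with 1 common difference was -0.82, and -0.49 without that library. The 17 xenobiotic genes under CAR and PXR had a median of -0.74 after regeneration and none was called.

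**Figure D3:**
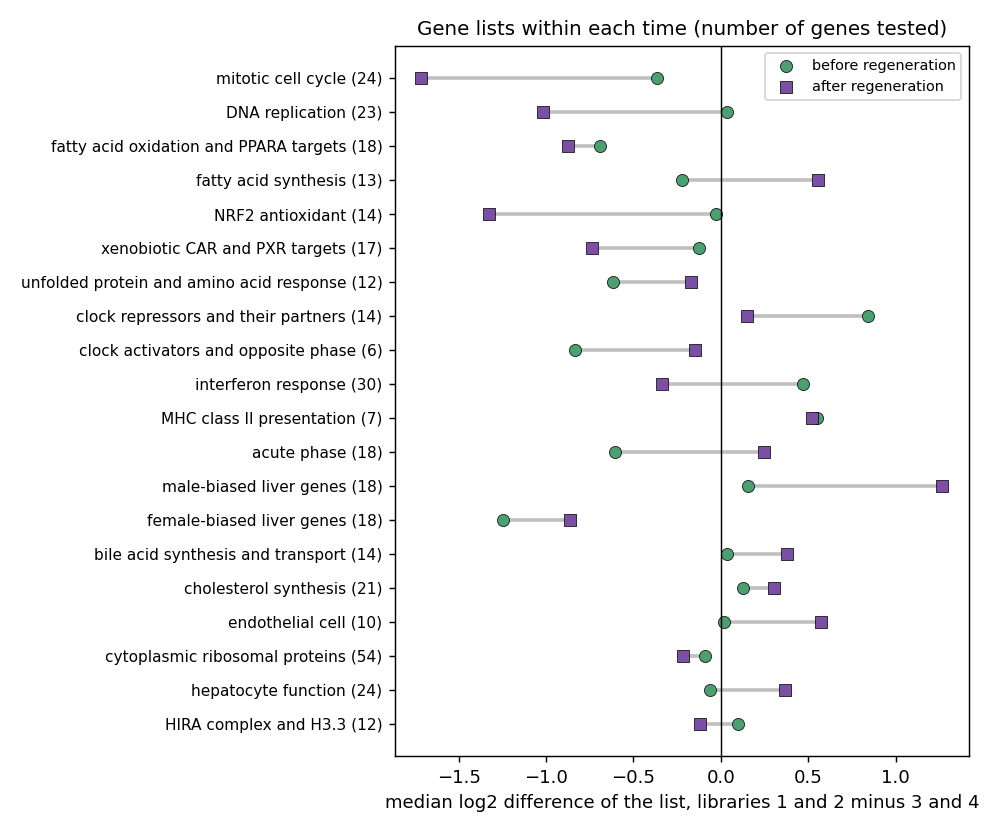
Median log2 difference between libraries 1 and 2 and libraries 3 and 4 over the tested genes of 20 lists, before (green circles) and after regeneration (purple squares). Values left of 0 are lower in libraries 1 and 2. The mitotic list moves from -0.37 to -1.71 and the repressor arm of the clock from 0.84 to 0.15.

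Immune genes gave 2 different pictures. Interferon response genes, 30 tested, had a median of 0.47 before and -0.34 after regeneration. Ifi47, an interferon-induced GTPase, was the 1 member called, at 40.5 and 45.4 against 27.4 and 18.8 CPM before and 49.7 and 53.2 against 38.4 and 35.4 CPM after (0.68 ± 0.13). This is 1 of 30, beside 0.347% of all genes higher, and Ifi47 was called in 2 of the 8 fits without 1 library. Usp18, a brake on interferon signalling, was at 35.7 and 40.1 against 15.98 and 18.2 CPM before and 25.1 and 42.5 against 33.9 and 43.8 CPM after regeneration, when the pairs overlapped. MHC class II genes had a positive difference in all 7 members at a median of 0.54, with 4 apart at both times (beside 7.2% of all genes) and none called. H2-Aa was at 50.03 and 47.9 against 39.6 and 23.3 CPM before and 24.3 and 15.1 against 14.03 and 12.8 CPM after, and library 4 before regeneration was the lowest library of its time in all 7 genes. Kupffer cell genes had a median difference of 0.15, B cell genes of -0.30, T and NK cell genes of -0.29 and endothelial genes of 0.016 before and 0.57 after regeneration. Leaving out single libraries gave medians between -0.052 and 0.47 for Kupffer cell genes, -0.62 and 0.015 for B cell genes and -0.44 and 0.024 for T and NK cell genes, so none of these 3 kept its sign. No gene was called among the tested markers of those cells, of cholangiocytes, stellate cells, neutrophils, red blood cells, fat or pancreas. Only 2 of the 8 gall bladder and pancreas genes and 6 of the 8 neutrophil genes had enough counts to be tested. For the untested genes the lack of a call carries no information.

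Sex-biased liver genes, which follow the rhythm of growth hormone release, also differed between libraries of the same pair. The 18 male-biased genes had a median of 0.16 before and 1.27 after regeneration and the 18 female-biased genes of -1.25 and -0.86, and none was called. The medians from the fit with 1 common difference were 0.64 and -0.91, and leaving out single libraries gave medians between 0.28 and 1.30 and between -1.25 and -0.57. Cyp7b1, an oxysterol hydroxylase higher in males, was at 197 and 432 against 309.7 and 77.2 CPM before and 176 and 382 against 113 and 60.5 CPM after regeneration, with library 4 lowest at both times. Cyp2a4, a steroid hydroxylase higher in females, was at 19.6 and 4.08 against 87.4 and 599.7 CPM after regeneration, and library 4 was again apart. Serpina1e, a male-biased antitrypsin gene, was at 4379 and 7730.4 against 8527 and 1052 CPM before and 7526 and 7266 against 2902 and 1067 CPM after. Mup and Serpina1 genes are sets of near-identical copies, Cyp2a4 has such a copy in Cyp2a5, and their single values are uncertain. Acute phase genes had a median of -0.60 before and 0.25 after regeneration, and the 54 ribosomal protein genes had negative differences in 53 at a median of -0.16.

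**Figure D4:**
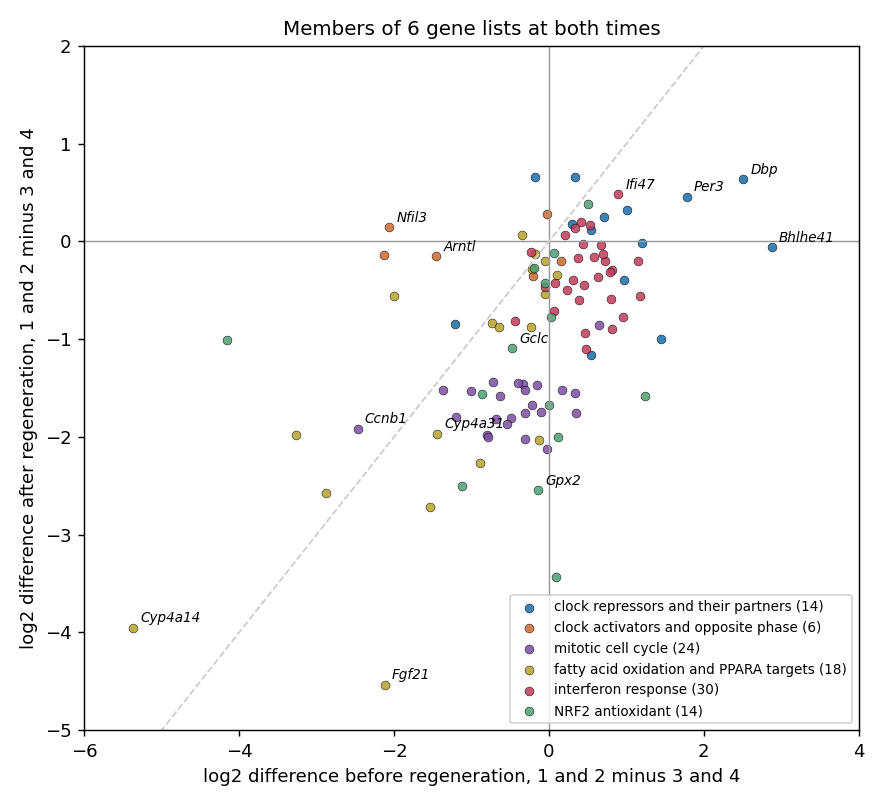
Log2 difference between libraries 1 and 2 and libraries 3 and 4 before (horizontal) and after regeneration (vertical) for the members of 6 gene lists, 1 point per gene, with the dashed line marking equal differences. Nfil3, at -2.06 and 0.15, lies far left on the zero line, and mitotic genes lie below the dashed line with 1 exception near it, Ccnb1 at -2.47 and -1.91.

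The difference between pairs changed with time in 29 of 20144 genes (0.144%), when each time was given its own difference. Besides Nfil3, Klf10, a TGF-beta-induced repressor with a daily rhythm in liver, was at 65.3 and 58.9 against 21.8 and 15.000 CPM before and 12.7 and 10.5 against 13.9 and 14.6 CPM after regeneration (1.75 and -0.30). No gene of the interferon list was called for such a change. By their values, 3 of its 30 genes had a negative difference before and 25 after regeneration, so the list as a whole had the same order as the genes named next. Chosen after their values were seen, 5 genes outside that list had a higher value in libraries 1 and 2 before and a lower one after regeneration. They were Cmpk2 (0.37 before and -1.19 after), Slfn9 (0.97 and -1.36), Herc6 (0.85 and -0.44), Igtp (0.47 and -0.84) and Trim30d (0.57 and -0.66). These 5 were not the only ones. Klf10, Cyp3a59 (1.00 and -0.61) and Epb41l1 (0.42 and -1.66) were called for the change and had the same order. Slfn9 was at 5.76 and 5.43 against 3.39 and 2.299 CPM before and 8.497 and 11.9 against 26.1 and 26.3 CPM after regeneration.

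Other genes had like values before regeneration and differed after it. Bhmt, which remethylates homocysteine with betaine, was at 2104 and 2413 against 2337 and 1879 CPM before and 1337 and 2252 against 379 and 343 CPM after regeneration. Thrsp, a lipogenic gene, was at 371 and 437 against 444 and 499.7 CPM and then 162 and 123 against 49.9 and 40.8 CPM, and Neat1, the RNA scaffold of paraspeckles, at 367 and 401 against 372 and 427 CPM and then 613 and 679 against 271 and 298 CPM. Nid1, a basement membrane protein, went the other way, at 17.6 and 15.7 against 19.03 and 14.8 CPM and then 39.4 and 42.2 against 94.1 and 124 CPM. Hist1h1c, a linker histone gene, was at 43.5 and 44.2 against 105 and 83.5 CPM before and 81.2 and 92.4 against 54.6 and 60.9 CPM after regeneration and so changed sign. Bhmt-ps1, a pseudogene copy, was called as well, and its reads may not be separable from those of Bhmt.

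The HIRA KO libraries carry running numbers of the same form, and nothing ties a number in 1 genotype to the same number in the other. Their columns 1 and 2 against 3 and 4 differed in 2948 of 20922 genes (14.1%). These libraries share no sample with the controls, so values can be set side by side. Of the 137 control-called genes that were tested there, 106 had the same sign of difference (77.4%, beside 60.5% of all genes and 62.2% of genes with a mean of at least 1 CPM in the controls), and 57 were called (41.6%, beside 14.6 and 18.9%), 53 of them in the same direction. The called genes were more abundant, at a median of 21.2 CPM against 4.08 CPM over all genes tested.

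Slco1a4 had the clearest values in both genotypes. In HIRA KO it was at 134 and 135 against 16.04 and 20.9 CPM in columns 1 and 2 against 3 and 4 before regeneration and at 127 and 132 against 13.9 and 10.4 CPM after it (3.14 ± 0.15, beside 1.53 ± 0.15 in control). Camk2b (1.16 ± 0.23 beside 1.23 ± 0.17), Slc16a13 (-1.66 ± 0.26 beside -1.49 ± 0.26), Rad51b (-2.97 ± 0.48 beside -2.30 ± 0.42) and Slc39a5 (-1.98 ± 0.27 beside -1.56 ± 0.30) were called in both. Cd207, Gm35696, Rian and Sspo were called in both as well. Upp2, the tightest gene of the control split, was at 399 and 326 against 186 and 279.8 CPM before and 57.1 and 413 against 88.5 and 178 CPM after regeneration in HIRA KO, when the pairs overlapped (0.73 ± 0.63, not called). Akr1b7 (1.82 ± 0.85), Gins2 (0.18 ± 0.54) and Pcp4l1 (-0.35 ± 0.26) had the opposite sign there and were not called. Of the lists, the repressor arm of the clock had a median of 0.57 in HIRA KO, beside 0.42 in control, and the PPARA targets of -0.58, beside -0.91. The mitotic list stood at -0.72, beside -1.42, and the interferon list at -0.93, beside 0.12. Male-biased genes had opposite medians, -2.80 in HIRA KO and 0.64 in control, the latter within the range given above.

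**Figure D5:**
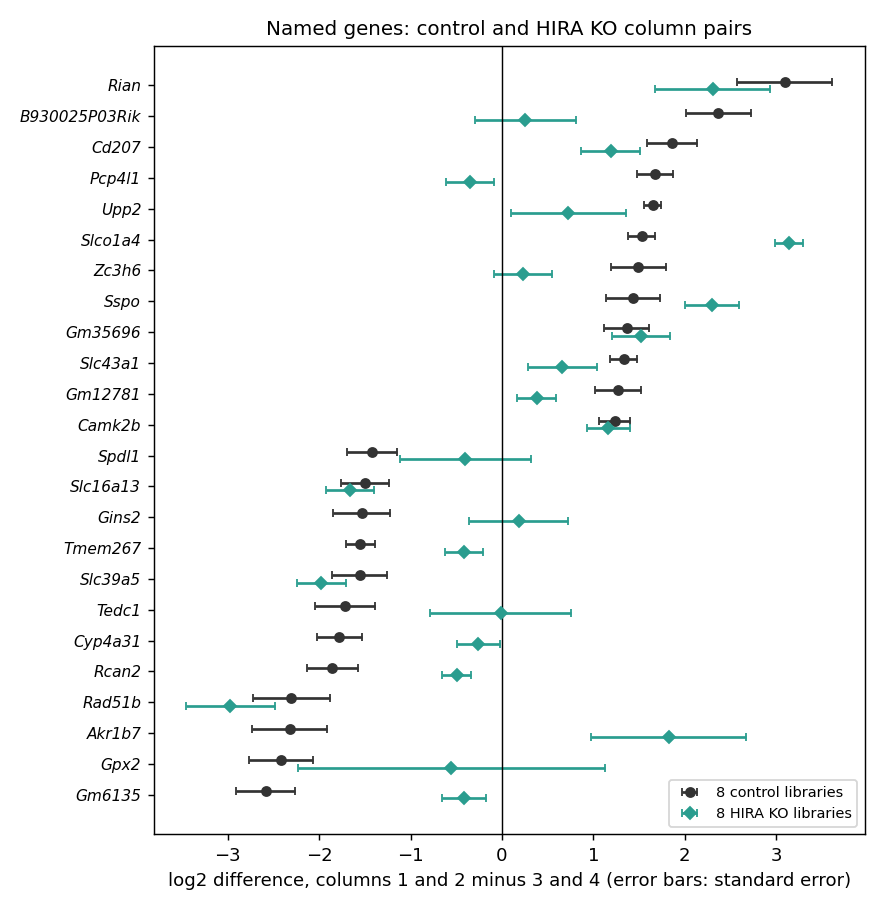
Log2 difference of columns 1 and 2 minus 3 and 4 for the 24 named genes, in the 8 control libraries (black circles) and the 8 HIRA KO libraries (green diamonds). Standard errors were derived from the F of the edgeR tests. Slco1a4 reaches 3.14 ± 0.15 in HIRA KO, and Akr1b7, at 1.82 ± 0.85, lies on the other side of 0 from its control value.

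Some features of the called genes were not used by the split. The median exon length was 5586 bases for genes higher in libraries 1 and 2, 2780.5 for lower genes and 3275 over all genes. Protein-coding genes made up 87.4% of the 135 annotated called genes, beside 72.4% of all. The called genes were also more abundant, as given above, and genes of like abundance were not compared. The calls were spread over 20 chromosomes, with 0.313% of tested genes on chromosome X and 1.25% on chromosome 9 as the extremes. Across genes, the difference had a Pearson r of 0.024 with GC content and of 0.10 with the logarithm of exon length (19747 genes of the same 8 libraries, given as a description). Of the 59 promoters matched to 46 of the 70 genes called higher in libraries 1 and 2, 10.2% held an E-box and 1.69% a D-box, and of those of the lower genes 7.59% and 1.27%, beside 7.15% and 0.938% of all promoters. Next to the filter, 346 genes had a total of exactly 10 counts and were tested and 317 had 9 and were not.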

How the data were processed

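Liver RNA was measured by poly(A) RNA-seq (NEBNext Ultra II Directional kit) in 16 libraries, of which 8 control and, for side-by-side values, 8 HIRA KO libraries were used. By the methods of the study, reads were aligned to mm10 with STAR and counted with HOMER. The submitters' notes also list HTSeq and Cufflinks, and the strand setting and annotation release are not given in the sources used here. The counts were deposited by the authors as whole reads per gene, without normalization. The FPKM values were deposited by the authors as a second table. Gene identifiers were matched to GENCODE M21 (54587 of 55421).

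The members and lists were chosen with earlier results of these data known. Libraries were split by the running number in the column headings, and genes whose counts in the 8 control libraries summed to 10 or more were tested with edgeR 4.0.16 in R 4.3.3 (TMM, robust quasi-likelihood fit, time as an additive term, Benjamini-Hochberg over all genes, called at an adjusted p under 0.05). A second fit gave each time its own difference. Differences are log2, libraries 1 and 2 minus 3 and 4. Their standard error was taken as the absolute difference over the square root of the quasi-likelihood F. CPM are counts over the library total multiplied by its TMM factor, scaled to the usual unit. The TMM factors of the HIRA KO libraries came from a separate fit. Nothing says which libraries came from separate mice, so p-values measure the spread between these libraries. Control libraries of the same time differed by more than counting noise. The chi-square per degree of freedom was 19.9 to 43.0 for libraries on the same side of the split. It was 31.8 to 77.8 for libraries on opposite sides, so the ranges overlapped. Named genes were the 12 in each direction with the largest absolute difference among those called, with a mean of at least 1 CPM and no overlap of the pairs within either time. Hira was always given, and list members could be named as members of their list. DESeq2 1.42.0, limma 3.58.1 on log2(FPKM + 0.1) or log2(FPKM + 1), other filters and scalings, and fits without single libraries were alternatives. For limma, an empty FPKM cell was taken as 0 where the count was 0. The scripts were tested on simulated counts. Promoter and motif sequences came from RefSeq on GRCm38.p6. HIRA KO against control was not analysed here. Some genes are not reported here.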

Additional observations from a re-analysis of the deposited data

Results flagged for a closer look

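The difference between the column pairs changed between the times in 29 genes (edgeR quasi-likelihood test of the interaction, Benjamini-Hochberg), and the 12 described here changed, as the difference after minus that before regeneration on the log2 scale with its standard error, by the following amounts. Nfil3 changed by 2.20 ± 0.21, from lower in libraries 1 and 2 before regeneration to overlapping values after it. Klf10, with a daily rhythm of its own, changed by -2.06 ± 0.24. Cmpk2, Slfn9 and Herc6 changed by -1.55 ± 0.17, -2.33 ± 0.30 and -1.29 ± 0.21, and Igtp and Trim30d by -1.31 ± 0.21 and -1.23 ± 0.21. Bhmt changed by 2.21 ± 0.33, Thrsp by 1.88 ± 0.24, Hist1h1c by 1.69 ± 0.19 and Neat1 by 1.24 ± 0.20. Nid1 changed by -1.39 ± 0.22. The 29 genes are 0.144% of those tested.

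By Dixon's criterion for 4 values, single libraries stood apart from the other 3 of their time in 7 of 88 sets of list means. Chance gives about 1 in 20. None of 56 sets of single gene levels and library measures held such a library. Most of those sets were named genes, chosen for pairs that did not overlap, so that count cannot be set against chance. All values are mean log2(CPM + 1). Before regeneration, library 2 was at 6.77 for glucose and fasting genes, with the others at 7.58 to 7.59. Library 3 was at 5.07 for metallothionein and iron genes, with the others at 5.49 to 5.55. Library 4 was at 6.84 for MHC class I genes (others 7.05 to 7.07) and at 3.25 for MHC class II genes (others 4.12 to 4.24). After regeneration, library 1 was at 2.97 for genes of fat and peritoneal tissue, with the others at 1.92 to 1.99, and at 6.14 for heat shock genes, with the others at 6.63 to 6.72. Library 4 was at 5.88 for Kupffer cell genes, with the others at 6.18 to 6.23.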

How the results depend on the processing

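The number of genes called between column pairs, 138, depended strongly on the processing. DESeq2 called 505, of which 134 were among the 138, a filter of at least 1 count in total 1115 and the fit with all 16 libraries 304. The interaction kept in the model and averaged over time gave 335 calls, the libraries after regeneration alone 231 and those before alone 42. Fewer were called with filterByExpr (74), without the robust fit (46), with limma on log2(FPKM + 0.1) (12) or log2(FPKM + 1) (10), and 51 had an absolute log2 difference over 1. RLE size factors gave 150 and library totals alone 130. Counts summed over both times by running number, added after the data were seen, gave 62, 31 of them among the 138. Leaving out single libraries gave from 19 to 250. The 29 calls of a changing difference became 172 with DESeq2 and 16 with filterByExpr, 39 with RLE factors, and 6 to 47 without single libraries. The cause was not tested. The 24 named genes kept their direction under every alternative that gave a value. They were chosen for no overlap at either time in these same libraries, which all but fixed their direction in advance. Hira, never called, is counted with them below. In all, 291 values stayed on their side of the threshold and 206 lost the call. List medians moved by more than the spread between libraries in 38 cases and by less in 402.

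No paired analysis was possible because the columns carry no replicate number of the labels, and a fixed block on the running number would absorb the split itself. Deviations of libraries with the same running number before and after regeneration correlated across genes at 0.205, 0.281, 0.0798 and 0.382 for numbers 1 to 4. Genes were centred by time only, so the difference between the pairs enters these values. Unlike numbers were not compared, so the correlations do not show whether equal numbers mark the same mouse.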
